A study of Mus musculus with 21 samples.

Results

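Mouse nephron progenitors kept as aggregates for 48 h were compared according to what the second day of culture held. In the BIO-withdrawn group, aggregates spent 24 h with 4 µM BIO and another 24 h with DMSO, the solvent. In the BIO-kept group they spent both days with 4 µM BIO. Each group had 3 arrays, so the comparison used 6 of the 21 arrays of the series, chosen by their titles and not by any measured value. BIO is a bromo-indirubin oxime that inhibits the kinase GSK3 and so raises beta-catenin signalling.

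The cells of all groups were sorted at E16.5 from kidneys carrying a BAC transgene, Six2GFPcre, on a mixed background, and the 48 h groups were pellets of 40000 cells grown with 10% serum, with new medium at 24 h. The other 15 arrays held fresh progenitors, aggregates and dispersed cells after 24 h with DMSO, and aggregates and dispersed cells after 24 h with 4 µM BIO, with 3 arrays each. The labels call the replicates biological without saying which litters or cultures they came from, so p-values measure only array-to-array spread, part of which may be technical. RNA went through 2 rounds of amplification before hybridization, and the sorted cells are a transgene-bearing population whose purity the labels do not give. No group of the series had 48 h in DMSO alone, and both 48 h groups had BIO on the first day, so no value here sets either group against cells of the same age that never saw BIO.

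In the developing kidney, Wnt9b from the ureteric bud acts on the progenitors of the cap mesenchyme, which gather into pretubular aggregates, switch on Wnt4 and Lhx1, and turn into the epithelial renal vesicle. Inside the cell, GSK3 marks beta-catenin for destruction, and beta-catenin that escapes binds TCF/LEF factors on target genes, many of which encode inhibitors of the same pathway. Work in mouse kidney has shown that beta-catenin activity starts this conversion, and that activity which does not end keeps cells from completing the epithelial change.

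After quantile normalization, 18193 genes were tested on the log2(signal + 1) scale, on which fold changes of dim genes are understated. At an adjusted p of 0.05, 3711 genes (20.4%) differed between the BIO-withdrawn and the BIO-kept aggregates. Of these, 1690 (9.29% of all genes) were higher after withdrawal and 2021 (11.1%) were lower. The median over all genes was -0.06 on the log2 scale. A fitted change of at least 2-fold was passed by 723 genes higher and 729 lower after withdrawal, and one of at least 4-fold by 211 higher and 270 lower. These counts used no floor at the background defined below. The 4-fold counts include Osr1 and Cxcl5, whose folds against background were at least 1.82 and at least 3.65. All 3 BIO-withdrawn arrays lay above all 3 BIO-kept arrays for 13.8% of genes and below them for 18.1%, and 163 of the called genes had overlapping groups. Below, a rise or a fall means higher or lower with BIO withdrawn than with BIO kept, not a change from 24 h. Of the 2021 lower genes, 1013 were also lower after withdrawal than in 24 h BIO aggregates. Another 500 differed from 24 h only by being higher with BIO kept. Of the 1690 higher genes, 797 were also higher after withdrawal than at 24 h. Another 535 differed from 24 h only by being lower with BIO kept. These comparisons share arrays. Background was taken as a signal of 41.8, below which 95% of the readings of 27 control probe sets for bacterial RNA lay, and between 76.4% and 78.5% of genes lay above it on the 6 arrays. Of the 3711 called genes, 126 had both group means below background.

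The arrays correlated at 0.975 to 0.987 within a group and at 0.895 to 0.915 between the groups. On the first principal component of all 21 arrays, which held 44.3% of the variance, the third BIO-withdrawn array lay at -0.773 and the other 2 at 8.68 and 8.62, and without it 3336 genes were called at 48 h. It had the highest Lhx1, Dll1, Cdh1 and Nrarp and the lowest Tagln, Ms4a2 and Slc26a7 of its group. Both RNA measures at hand moved with the groups. The 3′ beta-actin control probe set read between 11973 and 12845 on BIO-withdrawn arrays and between 6344 and 11267 on BIO-kept arrays, and the 3′ over 5′ ratio of the Gapdh control probe sets was 10.8 ± 1.38 on BIO-withdrawn arrays and 8.14 ± 1.74 on BIO-kept arrays (mean ± SD, n = 3 each). With the beta-actin reading or the Gapdh ratio as a covariate, 2679 and 2496 of the calls remained, and the part of RNA quality in the other calls was not tested.

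Target genes of the Wnt/beta-catenin pathway were mostly lower with BIO withdrawn than with BIO kept. Of 17 measured genes of a list of targets and feedback genes, 11 were lower and 1 was higher after withdrawal, against 11.1% and 9.29% of all genes, with a list median of -1.44. The signal summed over the list was 11822 to 14347 on BIO-withdrawn arrays and 44705 to 47427 on BIO-kept arrays. Against 24 h BIO aggregates, 3 of the 17 were higher and 9 lower after withdrawal (8.66% and 16.2% of all genes), and 6 were higher and none lower with BIO kept (8.05% and 12.8% of all genes), where both comparisons share the 24 h arrays.

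Axin2, a scaffold of the destruction complex and a widely used readout of the pathway, had signals of 520.4, 677 and 698 on the BIO-withdrawn arrays against 5059, 4224 and 4165 on the BIO-kept arrays. The groups were far apart, and Axin2 was 7.12-fold lower after withdrawal (log2 fold change -2.83 ± 0.17, adjusted p = 5.6e-09; ± is the standard error of the fit here and below). Aggregates after 24 h read 3529 with BIO and 351 with DMSO, and fresh cells 1142. The 1 other probe set of Axin2 was not called at 48 h. Notum, a secreted enzyme that inactivates Wnt proteins, read 157, 174 and 127 after withdrawal against 5175, 4889.7 and 4545 with BIO kept. It was 31.9-fold lower (log2 -5.00 ± 0.18, adjusted p = 2.7e-11), and the BIO-withdrawn mean of 153 lay near the 24 h DMSO aggregates at 119.9, a pair that was not tested. Sp5, a zinc finger factor induced by beta-catenin, had 44.2, 72.1 and 39.5 after withdrawal against 1955, 1675 and 1859.8 with BIO kept. It was 35.7-fold lower (log2 -5.16 ± 0.46, adjusted p = 5.1e-07), with 1 BIO-withdrawn array below background.

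Wif1, a secreted protein that binds Wnt ligands, had the largest fall of the genes named by the rule. It read 40.0, 21.7 and 32.5 after withdrawal, all below background, against 4522, 5060.3 and 4657 with BIO kept, and so was at least 111-fold lower (log2 -7.24 ± 0.40, adjusted p = 2.5e-09). The 24 h BIO aggregates read 262, below the BIO-kept arrays. Apcdd1, a membrane inhibitor of Wnt signalling, had 1582, 1159 and 1204 after withdrawal against 11195, 11703 and 11736 with BIO kept, and was 8.86-fold lower (adjusted p = 7.6e-09). Rnf43, a ubiquitin ligase that removes Frizzled receptors, was at least 4.72-fold lower after withdrawal (adjusted p = 0.00057), and its partner in function Znrf3 was 2.23-fold lower. The intracellular feedback gene Nkd1 was 3.87-fold lower and Nkd2 2.08-fold lower (adjusted p = 2.9e-08 and 0.0098). Tnfrsf19, a receptor of the TNF family also known as Troy, was 5.87-fold lower (log2 -2.55 ± 0.17).

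Lef1, one of the nuclear partners of beta-catenin, fell less. It had 992, 1074 and 1118 after withdrawal against 2814, 2734 and 3124 with BIO kept (2.72-fold lower, log2 -1.44 ± 0.17, adjusted p = 1.2e-05), while 24 h DMSO aggregates read 199 and fresh cells 339. Ccnd1, which encodes cyclin D1 and is listed among beta-catenin targets, went the other way. Its signals were 3510.5, 4069.5 and 4986 after withdrawal against 1777, 1205 and 1540.0 with BIO kept, 2.78-fold higher (log2 1.48 ± 0.21, adjusted p = 7.6e-05), and the 3 BIO-withdrawn arrays lay above all 18 other arrays of the series. Dkk1, Lgr5, Myc, Bambi and Sp8 did not pass the test, with log2 fold changes of 0.40, -0.34, -0.17, -0.40 and -0.08, and Sp8 was below background in both groups.

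**Figure D1:**
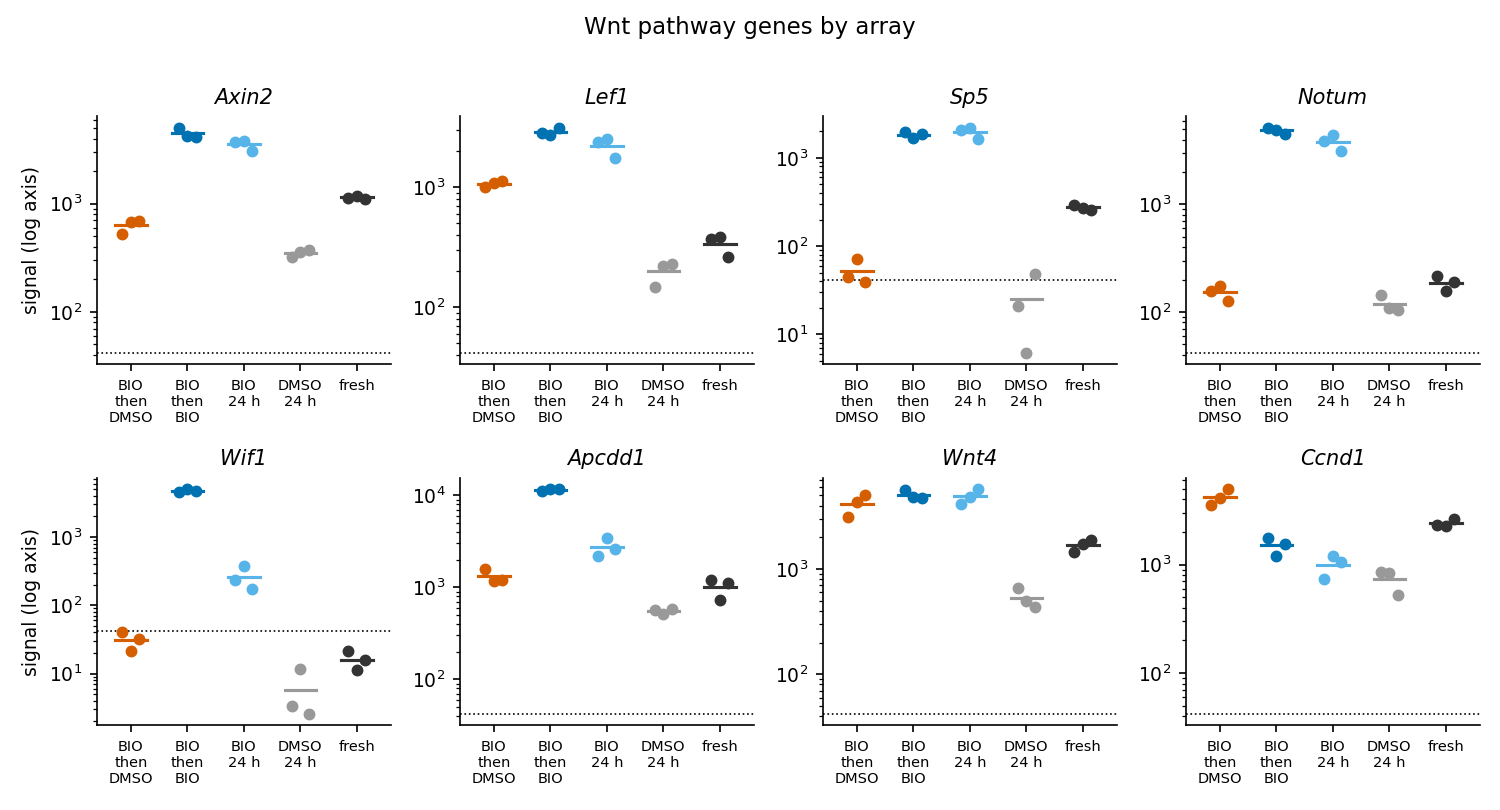
Signal of 8 Wnt pathway genes on a log axis, with 1 point per array and a bar at the mean of each group of 3. Groups run from BIO withdrawn and BIO kept at 48 h to BIO and DMSO aggregates at 24 h and fresh cells, and the dotted line is the background signal of 41.8. Axin2, Sp5, Notum, Wif1, Apcdd1 and Lef1 were lower with BIO withdrawn than with BIO kept, Ccnd1 was higher, and the groups overlapped for Wnt4.

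The promoters of the Wnt list were searched for the TCF/LEF motif, given as CTTTGAT or CTTTGAA on either strand, in the RefSeq promoter sequences of build GRCm38.p6, which run from 250 bases before to 50 after a gene's start. The motif was in 8.65% of all 32851 promoters. For 11 genes of the list there were 19 promoters, and 4 of them, at Sp5, Tnfrsf19, Sp8 and Dkk1, held it. The promoters of Sp5 (chr2:70474673-70474972, plus strand) and Tnfrsf19 (chr14:61037938-61038237, minus strand) are shown because both genes fell, 5′ to 3′ along the gene, with the motif in capitals.
Sp5: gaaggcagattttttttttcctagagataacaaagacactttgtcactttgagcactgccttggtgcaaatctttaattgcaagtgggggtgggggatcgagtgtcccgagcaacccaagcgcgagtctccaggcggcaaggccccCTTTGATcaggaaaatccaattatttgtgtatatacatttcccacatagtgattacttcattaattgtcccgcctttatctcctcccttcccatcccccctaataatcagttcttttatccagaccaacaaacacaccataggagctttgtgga
Tnfrsf19: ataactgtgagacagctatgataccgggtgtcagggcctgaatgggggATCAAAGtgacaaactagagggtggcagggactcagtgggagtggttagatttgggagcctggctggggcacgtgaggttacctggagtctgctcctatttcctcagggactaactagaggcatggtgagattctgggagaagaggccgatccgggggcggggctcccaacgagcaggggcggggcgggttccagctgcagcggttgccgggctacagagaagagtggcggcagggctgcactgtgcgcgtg
The motif of Sp5 lies at bases -104 to -98 from its start, and that of Tnfrsf19 at -202 to -196 on the opposite strand. A match in these windows is a description of the letters and not a bound site, and Sp8 and Dkk1, which hold the motif too, did not pass the test.

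Genes of the pretubular aggregate and the renal vesicle were counted in both directions. Of 17 measured, 7 were higher and 3 lower after withdrawal, against 9.29% and 11.1% of all genes, with a median of 0.21. Lhx1, a homeobox gene that the renal vesicle needs, had 934, 1243 and 1886 on the BIO-withdrawn arrays against 192, 214 and 461 on the BIO-kept arrays. The groups did not overlap, and Lhx1 was 4.85-fold higher after withdrawal (log2 2.28 ± 0.32, adjusted p = 6e-05). The 24 h BIO aggregates read 240.2, near the BIO-kept level. Pax8, a paired box factor of the forming nephron, had 2219.6, 1881 and 1704 after withdrawal against 583, 663 and 709 with BIO kept and was 2.96-fold higher (adjusted p = 4.7e-08). The Notch ligand Dll1 had 735, 654 and 1376 after withdrawal against 225, 249.5 and 273 with BIO kept and was 3.50-fold higher (adjusted p = 2.4e-05). For Lhx1, Pax8 and Dll1 alike, the 3 BIO-withdrawn arrays were above every other array of the series.

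Cdh6, the cadherin of the early nephron tubule, had 4998, 4965 and 4411 after withdrawal against 609, 518 and 602 with BIO kept, 8.31-fold higher (log2 3.05 ± 0.11, adjusted p = 2.7e-11). The BIO-kept arrays were the lowest and the BIO-withdrawn arrays the highest of all 21. The secreted Wnt modulator Sfrp2 was 8.27-fold higher (log2 3.05 ± 0.17), with a mean of 5683 after withdrawal against 692 with BIO kept. The last 2 rises were Npy at 1.72-fold and Tmem100 at 2.50-fold (adjusted p = 0.016 and 0.042).

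Wnt4, the Wnt that drives the mesenchymal to epithelial change, did not pass the test by its brightest probe set. It had 3127, 4307 and 5056 after withdrawal against 5645, 4856 and 4728 with BIO kept, and the groups overlapped (log2 -0.31 ± 0.18, adjusted p = 0.26). Its 1 other probe set was called lower after withdrawal, and Wnt4 was called lower with the mean of both (log2 -0.45, adjusted p = 0.0412) and with the beta-actin covariate (log2 -0.58, adjusted p = 0.0314). Both 48 h groups lay above the 24 h DMSO aggregates (437 to 653) and the fresh cells (1449.9 to 1876). Among the falls, the chemokine receptor Cxcr4 had 2.51, 61.1 and 32.9 after withdrawal against 586, 593 and 893 with BIO kept (adjusted p = 5.6e-05). The other falls were Papss2, an enzyme of sulphate donor synthesis 1.95-fold lower, and the cadherin Cdh4, 1.65-fold lower.

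Most genes of the nephron progenitor state that changed were lower after withdrawal, and the leading transcription factors divided. Of 18 measured, 8 were lower and 3 higher, against 11.1% and 9.29% of all genes, with a median of -0.26. Without the second BIO-kept array or with the beta-actin covariate, 5 were lower. Six2, the factor that maintains the progenitors and whose promoter drives the sorting transgene, had 889, 975 and 760.3 after withdrawal against 407, 526 and 541 with BIO kept. It was 1.78-fold higher (log2 0.84 ± 0.12, adjusted p = 0.0001), but both groups lay far below the 8565 to 9269.6 of fresh cells. Cited1, a marker of the least differentiated cap cells, was below background in both 48 h groups, at 3.42 to 7.45 after withdrawal and 2.92 to 5.15 with BIO kept, against 114 to 201 in fresh cells. Eya1 and Itga8 read 1398 and 1213 after withdrawal against 1327 and 1285 with BIO kept and did not pass the test (adjusted p = 0.79 and 0.66). By these markers, both groups at 48 h had less Six2 and Cited1 signal than the freshly sorted cells. In these bulk samples, fewer cells of a type and less RNA of its genes per cell cannot be told apart.

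Gdnf, the progenitors' growth factor for the ureteric bud, had 191, 84.0 and 34.2 after withdrawal against 1009.8, 1077 and 987 with BIO kept. It was 12.3-fold lower (log2 -3.62 ± 0.39, adjusted p = 3.6e-06), and the BIO-withdrawn arrays were the lowest of the series. The secreted factor Fgf20, which supports the progenitors, had 8.42, 2.47 and 6.92 after withdrawal, below background, against 191, 254 and 243 with BIO kept, at least 5.34-fold lower (adjusted p = 1.5e-08). Fgf9, which acts together with Fgf20, was 2.68-fold lower (adjusted p = 0.0017). Crym and Spock2, both bright in fresh cells at 7107 and 1520.5, were 4.64-fold and 11.2-fold lower after withdrawal. Sall1 (-0.48), Hoxd11 (-0.83) and Hoxa11 (-0.44) fell by less on the log2 scale.

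Wt1, a zinc finger factor of progenitors and, at its highest, of podocytes, rose. It had 3670.3, 4214 and 3843 after withdrawal against 645, 497 and 689 with BIO kept, 6.45-fold higher (log2 2.69 ± 0.15, adjusted p = 2.5e-09). The BIO-withdrawn arrays were the highest and the BIO-kept arrays the lowest of all 21. Osr1, an early factor of the kidney lineage, had 113, 102 and 39.7 after withdrawal against 18.9, 6.03 and 4.42 with BIO kept, at least 1.82-fold higher (adjusted p = 0.0025), with the third BIO-withdrawn array below background as well.

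Genes of podocytes were higher after withdrawal. Of 8 measured, 5 were higher and none was lower after withdrawal, against 9.29% and 11.1% of all genes, with a median of 1.71. Foxc2, a forkhead factor of podocyte precursors and of early nephrons, had 1970.4, 1706 and 2445 after withdrawal against 93.7, 33.5 and 44.1 with BIO kept, where 1 array lay below the background of 41.8. It was 38.2-fold higher (log2 5.26 ± 0.29, adjusted p = 2.5e-09), and 24 h DMSO aggregates and fresh cells read 2245 and 1492. Clic5 was at least 8.16-fold higher (adjusted p = 7.5e-05), the receptor phosphatase Ptpro 7.40-fold, Tcf21 3.40-fold and synaptopodin, encoded by Synpo, at least 2.43-fold (adjusted p = 0.0031). Ptpro lost its call with the mean of all probe sets, and Synpo with the Gapdh ratio covariate and with only the 6 arrays. Under each of these settings 4 genes of the list were higher. Nphs1, which encodes nephrin of the slit diaphragm, read 63.0, 59.7 and 53.6 after withdrawal against 48.0, 67.7 and 54.3 with BIO kept and did not pass the test (adjusted p = 0.9), nor did Podxl (0.65) or Cdkn1c (0.51). In 24 h aggregates Foxc2, Clic5, Ptpro and Synpo were lower with BIO than with DMSO, and Tcf21 was higher.

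**Figure D2:**
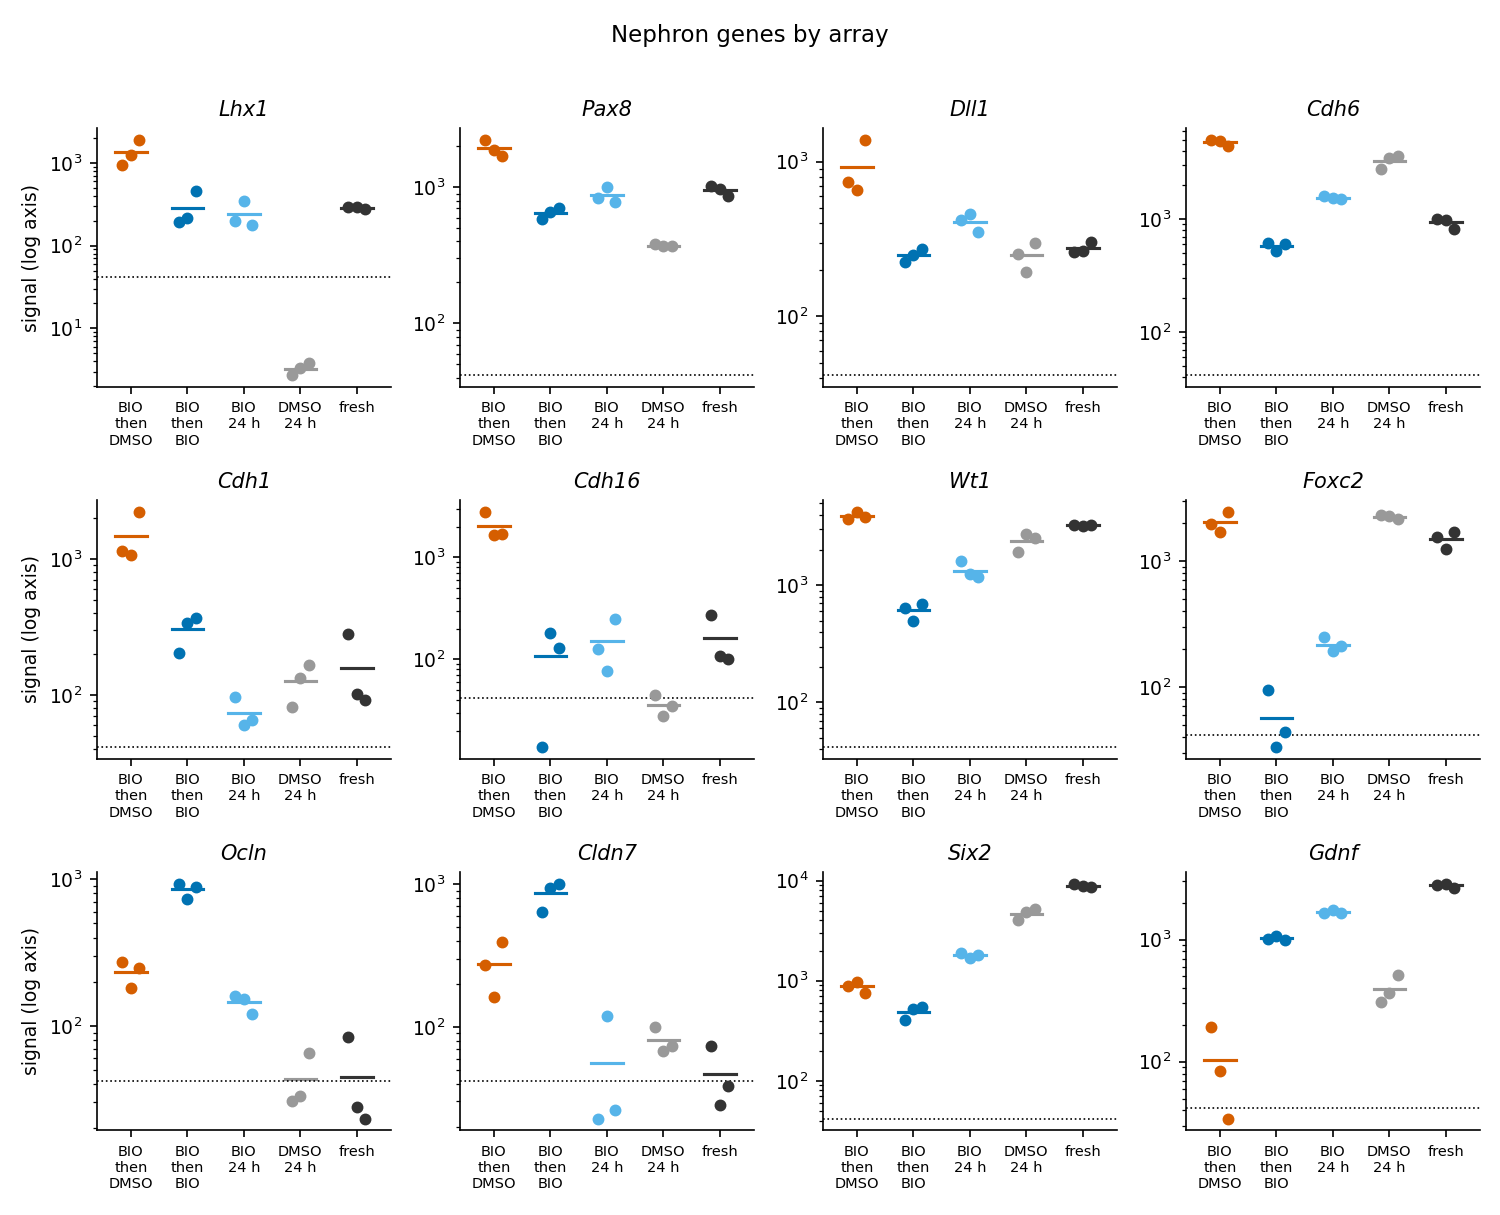
Signal of 12 nephron genes on a log axis by array, with the bar at the mean of 3 arrays, groups ordered from BIO withdrawn and BIO kept at 48 h to 24 h BIO, 24 h DMSO and fresh, and the background signal of 41.8 dotted. Lhx1, Pax8, Dll1, Cdh6, Cdh1, Cdh16, Wt1, Foxc2 and Six2 were higher with BIO withdrawn than with BIO kept, and Ocln, Cldn7 and Gdnf were lower.

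Epithelial genes did not move together. Of 24 measured genes of junctions, keratins and polarity, 3 were higher after withdrawal and 8 were lower, against 9.29% and 11.1% of all genes, with a median of -0.44. The 8 became 5 without the second BIO-withdrawn array, and 4 without the second or the third BIO-kept array, without the first BIO-withdrawn array or with the beta-actin covariate, under which the 3 became 5. Against the 24 h BIO aggregates, 9 of the 24 were higher and none was lower after withdrawal, and 12 were higher and none was lower with BIO kept, against 8.66% and 16.2% of all genes after withdrawal and 8.05% and 12.8% with BIO kept. These comparisons share the 24 h arrays.

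Cadherins led the higher genes. Cdh16, the kidney-specific cadherin of tubule epithelium, had 2786, 1672 and 1683 after withdrawal against 13.9, 183 and 128 with BIO kept. It was 28.1-fold higher (log2 4.81 ± 0.88, adjusted p = 0.00075), with 1 BIO-kept array far below the others. Cdh1, which encodes E-cadherin, had 1133, 1068 and 2205 after withdrawal against 202, 339.6 and 371 with BIO kept, and all BIO-withdrawn arrays lay above all other arrays of the series. It was 4.70-fold higher (log2 2.23 ± 0.60, adjusted p = 0.013). This call was lost without the first BIO-kept array (adjusted p = 0.0548) or the third BIO-withdrawn array (adjusted p = 0.0602), with array weights (adjusted p = 0.0555) and with the Gapdh ratio as a covariate (log2 1.62, adjusted p = 0.167). The third gene was the polarity gene Pard6b, 1.76-fold higher.

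The lower genes were mostly genes of tight junctions and of protease control. Ocln, which encodes occludin, had 272, 179.9 and 248 after withdrawal against 929.8, 737 and 891 with BIO kept, 3.68-fold lower (log2 -1.88 ± 0.39, adjusted p = 0.002), while 24 h BIO aggregates read 121 to 160.0. All BIO-kept arrays lay above every other array of the series for occludin. Epcam, a surface protein of epithelia, was 2.34-fold lower, Marveld2, which encodes tricellulin, 2.01-fold, the claudin Cldn6 1.78-fold, and the protease inhibitors Spint1 and Spint2 2.84-fold and 1.80-fold. Cldn7 had 272, 162 and 393 after withdrawal against 636, 943 and 1006 with BIO kept and was 3.26-fold lower (adjusted p = 0.029), a call that was lost when any 1 of 4 arrays was left out (adjusted p = 0.0622 to 0.125) and with either RNA covariate. The splicing regulator Esrp1, the eighth gene, was below background in the BIO-withdrawn and the BIO-kept mean alike. The keratins Krt7, Krt8, Krt18 and Krt19 did not pass the test, and the smallest of their adjusted p was 0.08, for Krt18.

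Of 15 measured basement membrane genes, 6 were higher and 2 lower after withdrawal, against 9.29% and 11.1% of all genes, with a median of 0.42. The 2 nidogens, which link laminin to collagen IV, led the list. Nid2 had 599.7, 709 and 631 after withdrawal against 60.2, 94.8 and 98.5 with BIO kept (7.73-fold higher), and Nid1 had 5805, 5974 and 4640.3 after withdrawal against 1059.5, 1192 and 853 with BIO kept (5.30-fold higher, adjusted p = 3.5e-10). Lamc1 was 2.90-fold higher, Col4a2 1.67-fold and Col4a1 1.44-fold. The sixth rise, Lamb2, had overlapping groups (adjusted p = 0.038) and lost its call with either RNA covariate, with only the 6 arrays and when any 1 of 4 arrays was left out, while Col18a1 was 1.70-fold lower. The other fall was Lama5 (log2 -0.58), and 1 fall was counted without the first BIO-kept or the third BIO-withdrawn array.

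Genes of later nephron segments were counted next. Of 11 measured proximal tubule genes none passed the test in either direction. Hnf4a, the factor of the proximal tubule, read 179.5, 81.2 and 279 after withdrawal against 103, 48.2 and 39.7 with BIO kept, with overlapping groups (log2 1.44 ± 0.74, adjusted p = 0.2), and Lrp2, the megalin gene, had an adjusted p of 0.13. Of 15 genes of the loop of Henle and distal tubule, 2 were higher and 2 lower (9.29% and 11.1% of all genes). The secreted protein gene Wfdc2 was 2.33-fold lower after withdrawal and Mecom 1.54-fold lower, and these 2 calls held with any single array left out. Mecom lost its call with the mean of all probe sets and with only the 6 arrays. The 2 rises, Tfap2b and Sim2, were dim, at 76.6 and 60.8 after withdrawal and below background with BIO kept, and with 1 array left out the count of rises was 0 to 3, and 0 with the Gapdh ratio as a covariate. Irx3, a homeobox gene of the middle nephron, averaged 1240.0 after withdrawal and 1192 with BIO kept, next to 216 in 24 h BIO aggregates, and the 48 h groups overlapped (log2 0.05 ± 0.21, adjusted p = 0.91).

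Notch pathway genes were higher after withdrawal in 7 of 15 cases and lower in none, against 9.29% and 11.1% of all genes, with a median of 0.75. Besides Dll1, already described, these were the receptors Notch1 (2.22-fold) and Notch2 (1.91-fold), the glycosyltransferase Lfng (1.80-fold) and the target genes Nrarp (3.69-fold), Hey1 (2.18-fold) and Hes1 (1.68-fold). Nrarp, a feedback inhibitor of Notch, had 345, 609 and 1208 after withdrawal against 109, 178 and 257 with BIO kept. Hey1, a repressor induced by Notch, had 2815, 3794 and 4774 after withdrawal against 2050.5, 1281 and 1878 with BIO kept, and its BIO-withdrawn arrays were above all 18 others. The ligand Jag1 was bright in both groups, at 5790.0 after withdrawal and 5288 with BIO kept, and did not pass the test (adjusted p = 0.73), nor did Rbpj, the DNA-binding partner of Notch (0.16), or Hes5 (0.85). Averaging all probe sets of a gene in place of the brightest ended the calls of Notch1, Notch2 and Lfng. With only the 6 arrays in the fit, 3 genes of the list were higher, and Nrarp, Hey1 and Lfng lost their calls.

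FGF and MAPK feedback genes were lower in 6 of 12 cases and higher in 1, against 11.1% and 9.29% of all genes, with a median of -0.46. Etv4 and Etv5, ETS factors induced by FGF signalling, were 4.70-fold and 3.56-fold lower. Etv5 had 778, 891 and 811 after withdrawal against 2886, 2906 and 3028 with BIO kept, with the BIO-withdrawn arrays the lowest and the BIO-kept arrays the highest of the series. Spry4, an inhibitor of receptor tyrosine kinase signalling, was 1.96-fold lower and the phosphatase gene Dusp4 1.80-fold lower, whereas Spry1 was 2.16-fold higher (adjusted p = 3.4e-07). Dusp6 and Spry2 did not pass the test (adjusted p = 0.073 and 0.93). Il17rd and Fgfrl1 completed the falls, at 1.69-fold and 1.29-fold. Il17rd lost its call when any 1 of 3 arrays was left out, with the beta-actin covariate, with the mean of all probe sets and with only the 6 arrays. With the third BIO-kept array left out or with the beta-actin covariate, 2 genes of the list were higher.

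In the BMP and TGF-beta list, 6 of 14 genes were higher and 1 was lower after withdrawal, against 9.29% and 11.1% of all genes. Inhba, which encodes the activin A subunit, had 2725, 2734 and 1877 after withdrawal against 327, 184 and 149.6 with BIO kept, 11.5-fold higher (log2 3.53 ± 0.33, adjusted p = 9.4e-07), and 24 h BIO aggregates read 9.61. The BMP antagonist Grem1 was 4.44-fold higher. Bmp7, a survival factor of the progenitors, had 788, 1013 and 1192 after withdrawal against 3355, 2889 and 3106 with BIO kept and was 3.16-fold lower (adjusted p = 1.7e-07). The rest of the rises, Tgfbi, Smad7, Smad6 and Id4, were between 1.37-fold and 1.52-fold. Smad6 lost its call without the third BIO-kept or the first BIO-withdrawn array and with the beta-actin covariate, and with only the 6 arrays 2 genes of the list were higher. Id1, Id2 and Id3, direct targets of BMP signalling, had log2 fold changes between -0.10 and 0.06 and did not pass the test.

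**Figure D3:**
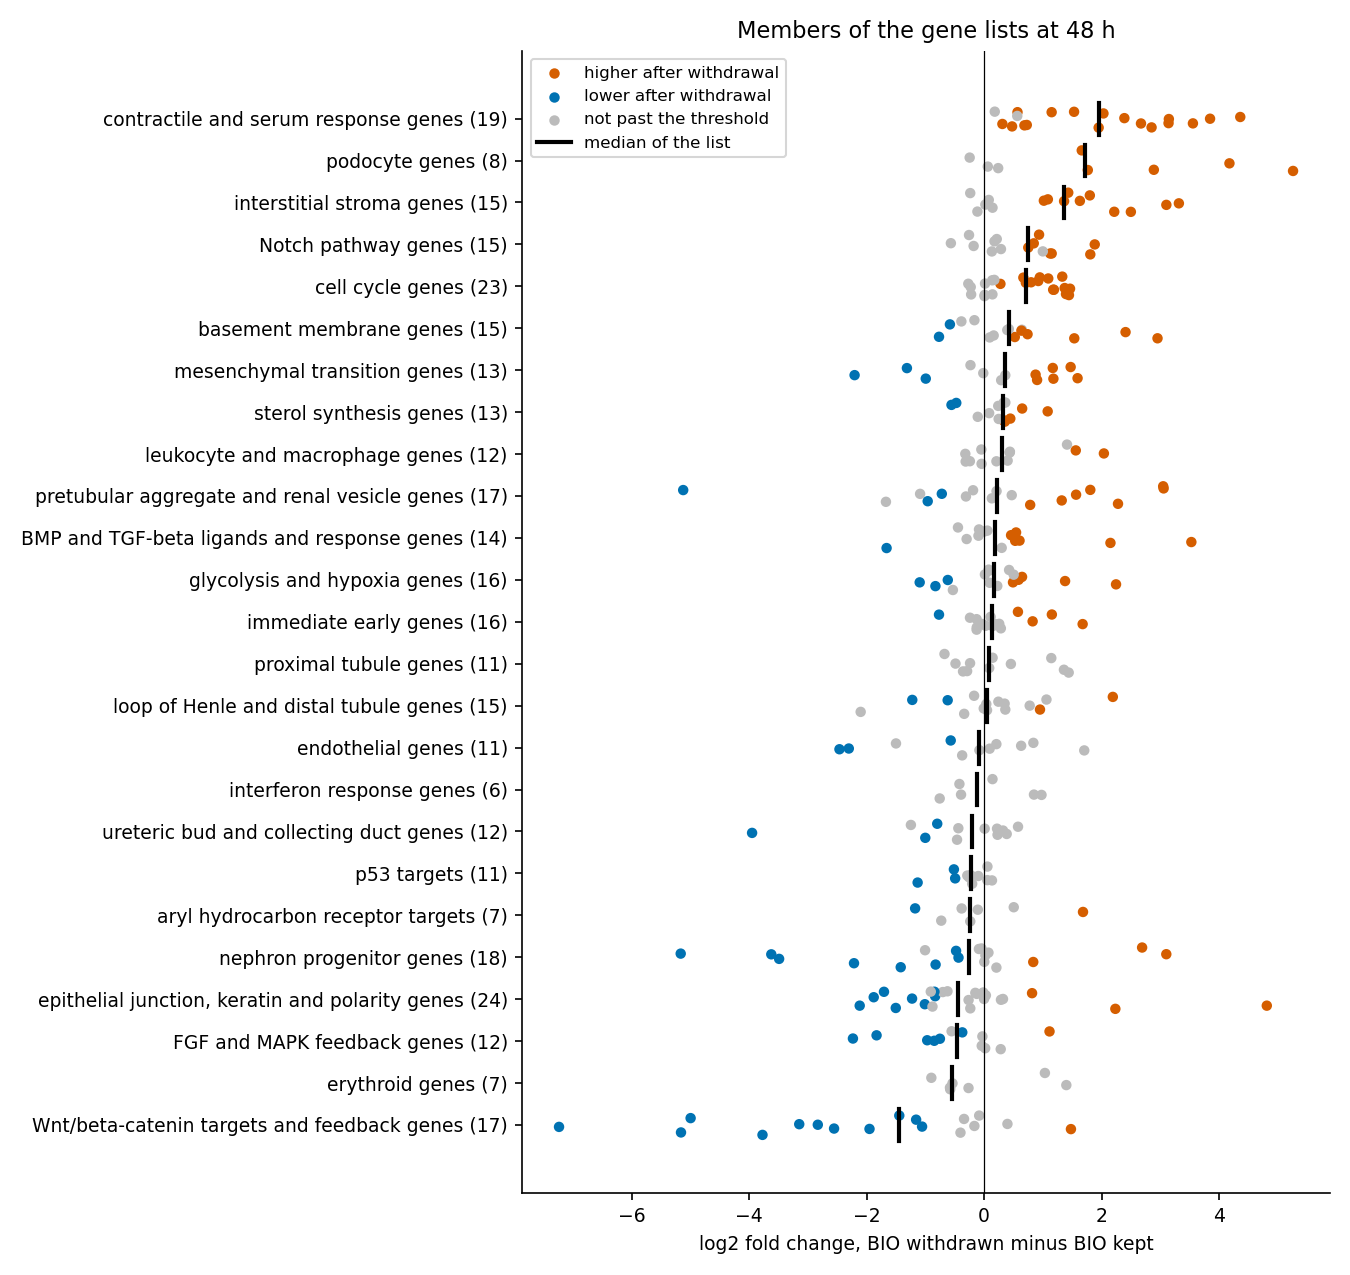
Log2 fold change, BIO withdrawn minus BIO kept, of each measured member of 25 gene lists, with the number measured in brackets and a black bar at the list median. Orange points were higher and blue points lower after withdrawal at an adjusted p of 0.05, and grey points did not pass. Contractile genes lie to the right with a median of 1.95 and Wnt targets to the left with a median of -1.44, and some genes are in more than one list.

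Contractile and serum response genes were the list with the most rises. Of 19 measured, 17 were higher after withdrawal and none was lower, against 9.29% and 11.1% of all genes, and the median was 1.95. The summed signal of the list was 65622 to 79445 on BIO-withdrawn arrays against 32804 to 34578 on BIO-kept arrays, next to 25197 to 29529 in 24 h BIO aggregates and 99191 to 105900 in 24 h DMSO aggregates. In 24 h aggregates, 18 of the 19 were lower with BIO than with DMSO, against 12.5% of all genes.

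Ccn2, a matricellular growth factor and target of YAP and serum response factor, had 8273, 9334 and 7568 after withdrawal against 958, 941 and 937 with BIO kept. It was 8.84-fold higher (log2 3.14 ± 0.11, adjusted p = 2.1e-11), and its relative Ccn1 was 5.23-fold higher. Tagln, which encodes the actin-binding protein transgelin, had 3514, 3504 and 2126 after withdrawal against 247, 236 and 274 with BIO kept, 11.7-fold higher, with the third BIO-withdrawn array below the other two. Acta2, smooth muscle actin, had 11238, 10894 and 9975 after withdrawal against 2430.0, 3106 and 2810.0 with BIO kept (3.86-fold higher, adjusted p = 5.5e-10). The groups of each of these genes stood well apart. The muscle gene Ankrd1 was at least 10.6-fold higher (adjusted p = 1.3e-07), calponin 1 (Cnn1) at least 2.90-fold (adjusted p = 7.4e-09), Actg2 7.21-fold and the myosin light chain Myl9 6.36-fold. Among the broadly expressed cytoskeletal genes the changes were smaller, with 1.48-fold for vinculin (Vcl), 1.39-fold for Actn1 and 1.24-fold for Srf itself, and filamin A (Flna) did not pass (adjusted p = 0.46). Beta-actin, whose control probe set is given above, is a cytoskeletal gene too.

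The CArG box, the binding motif of serum response factor, was searched on both strands of the same promoter set and was in 1.63% of all 32851 promoters. For 15 genes of the contractile list there were 16 promoters, and 4 held the box, at Myl9, Cnn2, Vcl and Srf. The promoters of Myl9 (chr2:156775214-156775513, plus strand) and Cnn2 (chr10:79988350-79988649, plus strand), 6.36-fold and 2.22-fold higher after withdrawal, are shown with the box in capitals.
Myl9: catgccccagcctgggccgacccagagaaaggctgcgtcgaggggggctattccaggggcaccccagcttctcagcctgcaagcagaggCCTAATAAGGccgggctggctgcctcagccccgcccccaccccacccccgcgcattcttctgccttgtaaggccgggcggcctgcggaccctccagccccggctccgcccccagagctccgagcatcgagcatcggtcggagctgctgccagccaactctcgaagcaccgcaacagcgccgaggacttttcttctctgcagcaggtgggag
Cnn2: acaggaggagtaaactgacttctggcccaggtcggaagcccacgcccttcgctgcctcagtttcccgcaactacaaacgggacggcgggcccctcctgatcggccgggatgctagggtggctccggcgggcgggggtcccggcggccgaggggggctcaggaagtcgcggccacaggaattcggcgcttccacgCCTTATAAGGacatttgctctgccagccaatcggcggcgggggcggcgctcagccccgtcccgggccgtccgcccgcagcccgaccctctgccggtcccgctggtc
The box lies at bases -161 to -152 from the start of Myl9 and at -56 to -47 from the start of Cnn2.

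Genes of the interstitial stroma rose as well, 10 of 15 measured with none lower, against 9.29% and 11.1% of all genes. The list median was 1.36. The summed signal of the list was 22848 to 24748 on BIO-withdrawn arrays and 11056 to 12931 on BIO-kept arrays. Pdgfrb, a receptor of pericytes and stroma, had 1424, 1827 and 2729.8 after withdrawal against 145, 283 and 173 with BIO kept (9.95-fold higher). The collagen gene Col3a1 had 4170.1, 3620.1 and 4409 after withdrawal against 532, 489 and 403 with BIO kept, 8.58-fold higher (log2 3.10 ± 0.10, adjusted p = 5.6e-12). The BIO-kept arrays were the lowest of the series for Col3a1, and the BIO-withdrawn arrays lay below the fresh cells at 6014 to 6682. Foxd1, the factor that defines stromal progenitors, had 1299, 1183 and 896 after withdrawal against 337, 448 and 307 with BIO kept, and fresh cells already held 2084 to 2126. Col1a1, Col1a2, Meis1, Pdgfra, Ntn1, Tbx18 and Postn were the other rises, and Meis2, Dcn, Lum, Smoc2 and Fibin did not pass.

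The mesenchymal transition list was mixed, with 6 of 13 genes higher and 3 lower, against 9.29% and 11.1% of all genes. Snai2, a zinc finger repressor, had 2376, 2438 and 1827 after withdrawal against 937, 607 and 680.0 with BIO kept (3.01-fold higher), and fibronectin (Fn1) was 2.77-fold, Zeb2 2.26-fold, Mmp2 2.25-fold, Ncam1 1.87-fold and vimentin (Vim) 1.83-fold higher. Twist1 was 2.49-fold lower and the homeobox gene Prrx1 4.61-fold lower. Cdh2, which encodes N-cadherin, had 3026, 2690.5 and 2727 after withdrawal against 6428, 5322 and 5125 with BIO kept, 1.99-fold lower (adjusted p = 0.00044), and the BIO-withdrawn arrays were the lowest of the series. Among the cadherins of the nephron and mesenchyme lists, Cdh1, Cdh6 and Cdh16 were higher after withdrawal, Cdh2 and Cdh4 were lower, and Cdh11 did not pass the test.

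Cell cycle genes were higher after withdrawal in 14 of 23 cases and lower in none, against 9.29% and 11.1% of all genes. The list median was 0.71. The members called with the largest changes act in mitosis. Mki67 had 7856, 7100.1 and 7906 after withdrawal against 2397, 2656 and 4360.2 with BIO kept, 2.51-fold higher (log2 1.33 ± 0.17, adjusted p = 1.9e-05). The cyclins Ccnb2 and Ccna2 were 2.75-fold and 2.63-fold higher, the spindle checkpoint kinase Bub1 2.72-fold, Aurkb 2.59-fold, Cdk1 2.28-fold and Plk1 2.26-fold. Among the replication licensing genes, only Mcm5 of the 6 measured Mcm genes passed, at 1.21-fold, while Mcm2, Mcm3, Mcm4, Mcm6 and Mcm7 had log2 fold changes between -0.23 and 0.17, and Pcna had 0.14.

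The 48 h groups were also set against 24 h BIO aggregates, whose arrays both comparisons share. There none of the 23 cell cycle genes was higher and 3 were lower after withdrawal, and none was higher and 17 were lower with BIO kept (16.2% and 12.8% of all genes were lower). Mki67 read 5759.6 to 6839.5 at 24 h with BIO, and all 3 BIO-kept arrays lay below the 18 others for Mki67, Top2a, Ccna2, Cdc20, Rrm2 and Cdc6. Cdkn1a, which encodes the cell cycle inhibitor p21, was 2.19-fold lower after withdrawal, with 5102, 4647 and 3464 after withdrawal against 10002, 9441 and 9160.3 with BIO kept (adjusted p = 1.9e-06). Its call was lost with the mean of all probe sets.

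**Figure D4:**
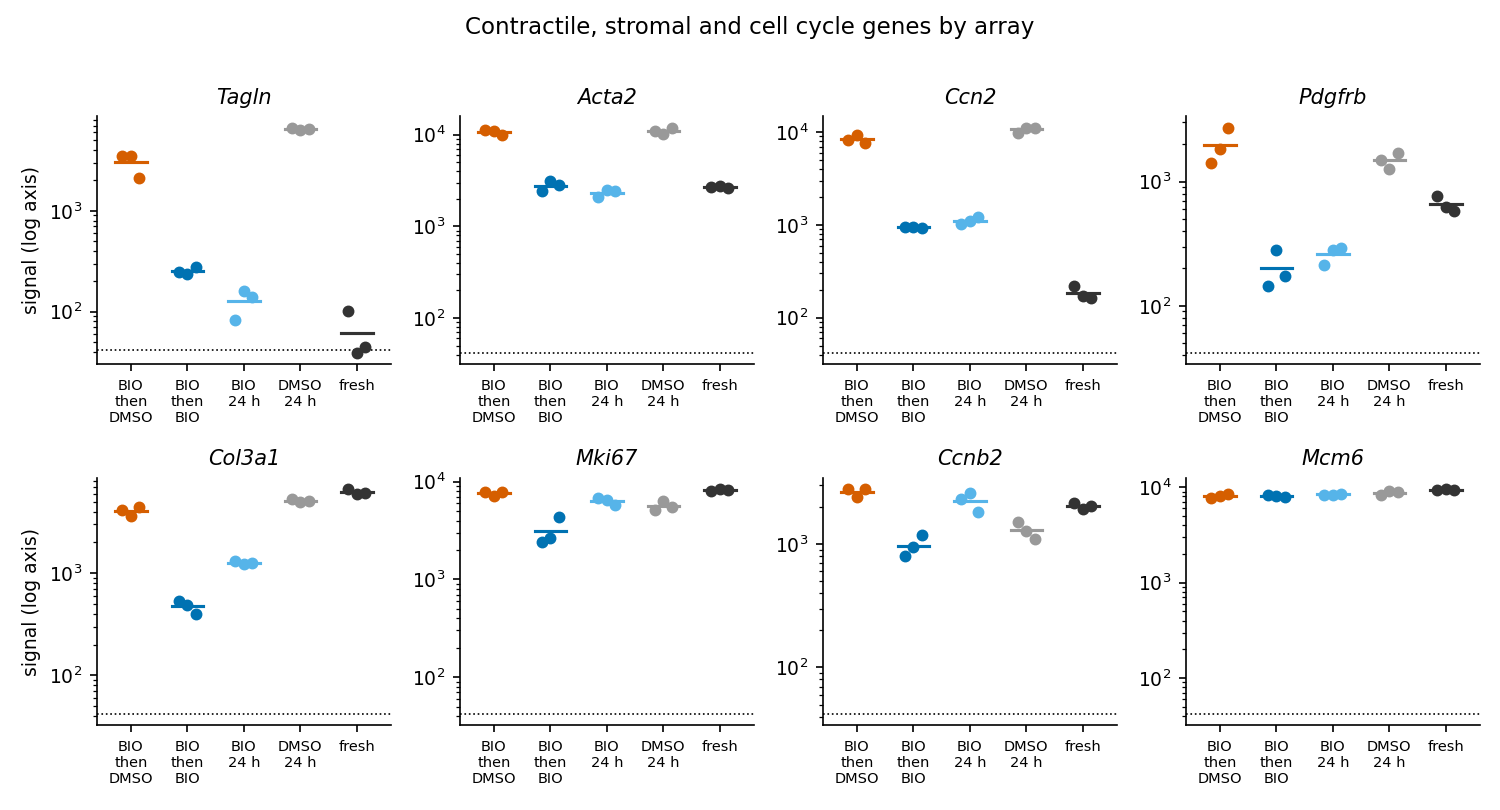
Signal of contractile (Tagln, Acta2, Ccn2), stromal (Pdgfrb, Col3a1) and cell cycle (Mki67, Ccnb2, Mcm6) genes on a log axis by array, with bars at group means, the background signal of 41.8 dotted, and groups ordered from BIO withdrawn and BIO kept at 48 h to 24 h BIO, 24 h DMSO and fresh. All but Mcm6 were higher with BIO withdrawn than with BIO kept, and the Mcm6 groups overlapped.

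Stress and signalling lists gave smaller counts. The shares of all genes remain 9.29% higher and 11.1% lower for each list below. Of 16 immediate early genes, 4 were higher (Ier3, Fosl1, Dusp1 and Nr4a1) and 1 lower (Ier2), while Fos, Jun and Egr1 did not pass. With only the 6 arrays in the fit, 1 was higher, and Fosl1, Dusp1 and Nr4a1 lost their calls. BIO is an indirubin, a class that also binds the aryl hydrocarbon receptor. Of 7 measured target genes of that receptor, 1 was higher and 1 lower: Cyp1b1 was 3.21-fold higher after withdrawal, and the mean of Aldh3a1, the fall, was below background in both groups, and its call was lost when any 1 of 4 arrays was left out. Cyp1a1, the usual readout of that receptor, had 47.2, 31.4 and 56.7 after withdrawal against 21.5, 89.9 and 96.9 with BIO kept and did not pass (adjusted p = 0.84). Of 11 p53 targets, 3 were lower (Cdkn1a, Trp53inp1 and Zmat3), and without the first or second BIO-kept array or the third BIO-withdrawn array or with only the 6 arrays this count was 1.

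Glycolysis and hypoxia genes were higher in 5 and lower in 3 of 16 cases, and higher in 3 without the first BIO-kept array and in 2 with the mean of all probe sets or with only the 6 arrays. Adm, which encodes adrenomedullin, was 4.74-fold higher and the kinase gene Hk2 1.78-fold lower, while Slc2a1, Ldha and Pgk1 had log2 fold changes between 0.01 and 0.08. Sterol synthesis genes were higher in 5 and lower in 2 of 13 cases, led by Lss at 2.12-fold higher, and higher in 3 with the beta-actin covariate or with median centring. With only the 6 arrays 2 were higher. The 2 falls became 1 without the second BIO-kept or the first BIO-withdrawn array, and 0 with the beta-actin covariate or with only the 6 arrays. Of 6 measured interferon response genes none passed in either direction, and for Ifit3, the gene with the largest change, both group means were below background (adjusted p = 0.4).

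Marker lists of other cell types were then counted. Of 12 leukocyte genes, 2 were higher and none was lower after withdrawal (9.29% and 11.1% of all genes), Lyz2 at 2.95-fold and Ptprc at least 3.01-fold, and the Ptprc call was lost when any 1 of the 6 arrays was left out (adjusted p = 0.0537 to 0.11). The summed leukocyte signal was 1216 to 2114 after withdrawal against 1073 to 1365 with BIO kept, and of the 12 group means 5 after withdrawal and 6 with BIO kept were below background. Of 11 endothelial genes, 3 were lower (11.1% of all genes), Tek at 5.51-fold, Flt1 at 4.94-fold and Egfl7 at 1.48-fold, and 1 was lower without the first BIO-withdrawn array or with only the 6 arrays. The defining endothelial gene Cdh5 read 33.4 to 42.8 after withdrawal and 39.6 to 63.8 with BIO kept, and Pecam1 had means below background in both groups. The summed endothelial signal was 1090 to 1409 after withdrawal against 1479 to 1899 with BIO kept, with 4 of 11 means below background in each group. Of 12 ureteric bud genes, 3 were lower (11.1% of all genes), Gata3 at least 2.26-fold, the Gdnf co-receptor Gfra1, 2.00-fold and Aqp2 1.74-fold, while Ret and Wnt11 did not pass. Aqp2 lost its call with either RNA covariate and when any 1 of 3 arrays was left out, and Gfra1 with the mean of all probe sets. The summed ureteric signal was 1326 to 1689 after withdrawal against 2143 to 2443 with BIO kept, with 4 of 12 means below background after withdrawal and 3 with BIO kept. Of 7 measured erythroid genes none passed, the sums were 169 to 252 after withdrawal and 176 to 256 with BIO kept, and 5 means after withdrawal and 6 with BIO kept were below background. The part of such cells in the differences between the groups was not tested.

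The 12 largest rises, with provisional gene symbols left out, were Ms4a2, Slc26a7, Pcdh8, Ldlrad4, Kif26a, Slc16a7, Pmp22, Brinp1, Foxc2, Tcf23, Crispld2 and Pdgfd. They were ranked by fitted log2 fold change, with no floor at background. Against background, Ldlrad4, Slc16a7 and Brinp1 were at least 7.72-fold, 4.50-fold and 3.82-fold higher, while Cdh16, outside the 12, was 28.1-fold higher. Slc26a7, an anion exchanger, had 3778, 3356 and 1597 after withdrawal against 15.8, 24.2 and 34.3 with BIO kept, at least 63.6-fold higher (adjusted p = 4.2e-10). Its level in 24 h DMSO aggregates was 1895 and in fresh cells 1141, within and below the BIO-withdrawn range. Pmp22, a membrane protein best known from myelin, had 4489.8, 4423 and 4475 after withdrawal against 82.1, 128 and 126 with BIO kept, 40.3-fold higher (log2 5.33 ± 0.16, adjusted p = 3.6e-12). The BIO-withdrawn arrays were the highest and the BIO-kept arrays the lowest of all 21, and fresh cells averaged 497. Kif26a, a kinesin family member, and Tcf23, a helix-loop-helix factor, were at least 7.07-fold and 5.14-fold higher and below background in 24 h aggregates and fresh cells alike. Ms4a2, the gene of an IgE receptor subunit known from mast cells, had 2689, 2744 and 962 after withdrawal against 11.9, 7.43 and 28.2 with BIO kept, at least 44.9-fold higher, and 24 h DMSO aggregates had 5074. The cell adhesion gene Pcdh8 and the growth factor gene Pdgfd were at least 28.4-fold and 7.05-fold higher. No other probe set of Ms4a2, Slc26a7 or Ldlrad4 was called, while Pcdh8, Crispld2 and Pdgfd had another called higher.

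Besides Wif1, Sp5, Notum, Fgf20 and Cxcr4, the 12 largest falls by the same ranking were Krt33a, Jakmip1, Prss56, Sptlc3, Dcc, Tnfrsf11b and Cxcl5. Against background, Cxcl5 was at least 3.65-fold lower, while Msx1, outside the 12, was 22.4-fold lower. Jakmip1, a microtubule-associated protein, had 9.24, 13.3 and 84.4 after withdrawal against 2772, 2961 and 2639 with BIO kept, at least 51.7-fold lower (adjusted p = 2.6e-07). Sptlc3, a subunit of the first enzyme of sphingolipid synthesis, had 21.4, 51.4 and 7.73 after withdrawal against 1577, 1560.5 and 1496 with BIO kept, at least 33.7-fold lower. The netrin receptor Dcc had 43.3, 31.0 and 16.9 after withdrawal against 1486, 1212 and 1394 with BIO kept, at least 31.4-fold lower. In all 3 genes the 24 h BIO level lay between, at 388, 277 and 305. Tnfrsf11b, the gene of osteoprotegerin, the hair keratin gene Krt33a, the protease gene Prss56 and the chemokine Cxcl5 had means below background in 24 h BIO aggregates and in BIO-withdrawn aggregates. They read 303 to 554, 365 to 501, 884 to 1085 and 131 to 171 on BIO-kept arrays. In dispersed cells after 24 h with BIO, Tnfrsf11b and Prss56 averaged 67.1 and 76.4, above background.

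The effect of withdrawal was then set against the effect of BIO at 24 h, measured on other arrays of the series, though both come from 1 fit with a shared estimate of spread. In aggregates at 24 h, 30.0% of genes differed between BIO and DMSO, 17.5% higher and 12.5% lower with BIO. Of the 3185 genes raised by BIO at 24 h, 878 (27.6%) were lower after withdrawal at 48 h, which is 43.4% of all genes lower after withdrawal, and 298 (9.36%) were higher. Of the 2270 genes lowered by BIO at 24 h, 788 (34.7%) were higher after withdrawal, 46.6% of all genes higher after withdrawal, and 179 (7.89%) were lower. Over all genes, 9.29% were higher and 11.1% lower after withdrawal. Thus 1666 genes went opposite ways and 477 the same way, among 2143 called in both. The correlation across all genes was -0.38, and -0.48 over the 9096 brighter genes, where genes are not independent. With the beta-actin reading as a covariate, the 24 h comparison called 2405 genes in place of 5455, and 351 in place of 878 genes were raised at 24 h and lower after withdrawal. That reading itself moved with BIO, at 2669 to 5410 in 24 h BIO aggregates and 7700 to 12586 in 24 h DMSO aggregates. In this fit the covariate and the 24 h treatment therefore cannot be fully told apart.

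In dispersed cells, which share no arrays with the aggregates, 28.7% of genes differed between BIO and DMSO at 24 h. Of 2792 genes that BIO raised there, 909 (32.6%) were lower in aggregates after withdrawal, and of 2438 that it lowered, 849 (34.8%) were higher. Over all genes these shares were 11.1% and 9.29%. Another 1568 genes, 42.3% of the calls after withdrawal, were not called at 24 h in aggregates.

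Lhx1 was among the 298 genes raised by BIO at 24 h and higher after its withdrawal. These were 9.36% of the raised genes, near the 9.29% of all genes that were higher after withdrawal. Lhx1 is given here as a single gene. It was at least 5.38-fold higher with BIO than with DMSO at 24 h (adjusted p = 1.2e-09), where the DMSO mean was below background, and 4.85-fold higher with BIO withdrawn than with BIO kept at 48 h. Pax8 and Dll1 were 2.32-fold and 1.66-fold higher with BIO at 24 h. Of the 23 cell cycle genes, 14 were higher with BIO at 24 h (17.5% of all genes), and 14 were higher after withdrawal at 48 h (9.29% of all genes). For Wnt targets the directions were opposite, with 12 of 17 raised by BIO at 24 h and 11 lower after withdrawal (17.5% and 11.1% of all genes).

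**Figure D5:**
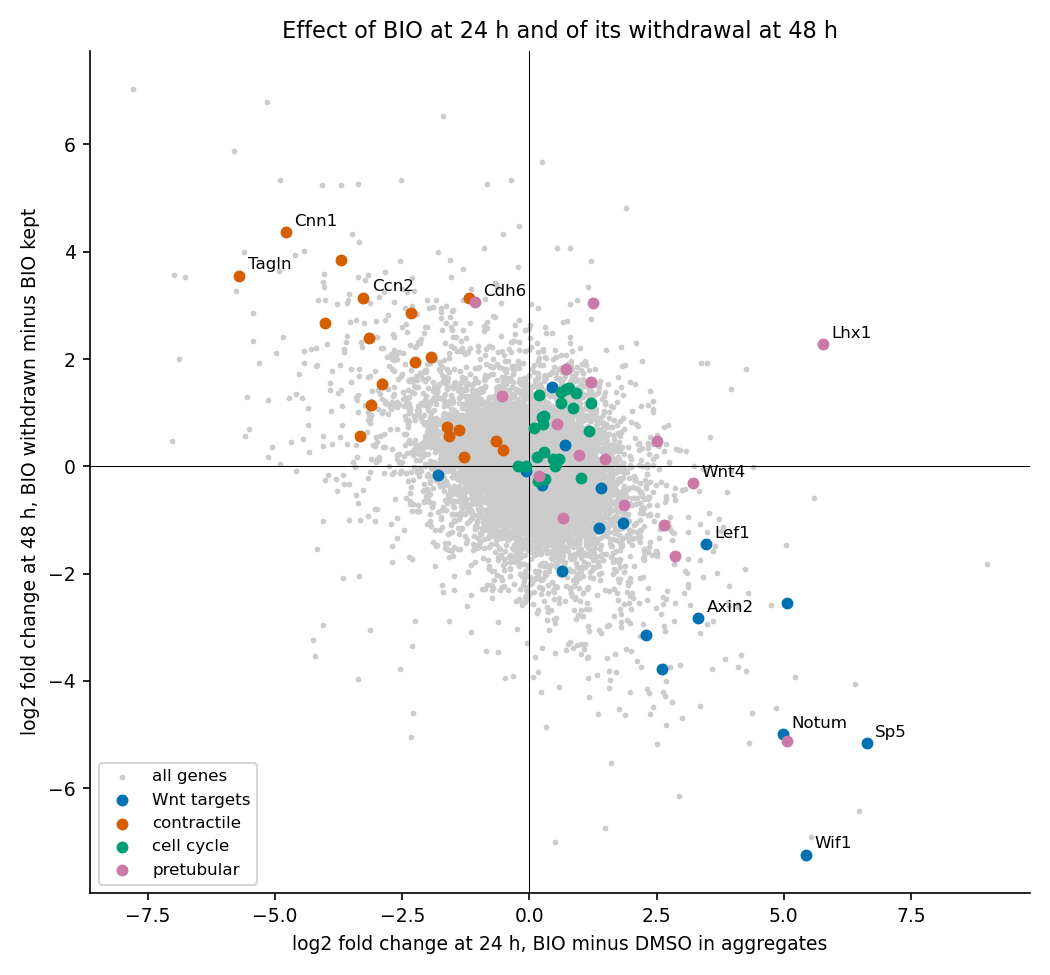
Each grey point is 1 of 18193 genes, with the log2 fold change of BIO minus DMSO in 24 h aggregates on the horizontal axis and that of BIO withdrawn minus BIO kept at 48 h on the vertical axis. The coloured points are Wnt targets, contractile, cell cycle and pretubular genes. Wnt targets such as Notum, Sp5 and Wif1 lie at the lower right and contractile genes such as Tagln and Cnn1 at the upper left, whereas Lhx1 lies at the upper right.

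The 2 groups at 48 h also differed in how far they left the range of the other arrays. All 3 BIO-kept arrays lay above the 18 other arrays for 725 genes (3.99%) and below them for 387 (2.13%). All 3 BIO-withdrawn arrays lay above the 18 others for 229 genes (1.26%) and below them for 146 (0.803%). The 7 tight junction and related epithelial genes were highest with BIO kept, Epcam, Cldn6, Cldn7, Ocln, Marveld2, Spint1 and Spint2, and 7 Wnt list genes, Nkd1, Nkd2, Wif1, Rnf43, Apcdd1, Lgr5 and Bambi. Of the pretubular list, Lhx1, Pax8, Dll1, Cdh6, Npy and Sfrp2 were highest with BIO withdrawn, and Greb1 and Papss2 with BIO kept.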

How the data were processed

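RNA of 21 samples in 7 groups of 3 was amplified in 2 rounds and measured on 1-colour Affymetrix arrays of 45101 probe sets. The deposited values are intensities on a linear scale, from 0.1 to 18025. No label states which software produced the deposited intensities or how they were scaled. The values were quantile normalized and taken to log2(value + 1), with a pseudocount of 1. A probe set names a gene where the platform annotation gives 1 symbol (34945 probe sets, with 932 naming several, 9160 none, and 64 controls), and the brightest probe set over all arrays stood for each of 18193 genes. A group mean below a signal of 41.8 counts as below background, and a fold against it is given as "at least", with that background in place of the dim mean.

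All p-values of single genes are from limma 3.58.1 in R 4.3.3, fitted to all 21 arrays with 7 group means (14 residual degrees of freedom) and adjusted over 18193 genes by Benjamini-Hochberg with a threshold of 0.05. Alternatives were the deposited scaling, median centring, a pseudocount of 16, dim genes left out, the mean of all probe sets, array weights, RNA covariates, a replicate block, only the 6 arrays, and each array left out. On simulated data over these genes with 3 arrays a group, changes were planted only in genes brighter than the median, with independent normal noise. There 50% of 50 genes changed by log2 0.5 and 90% of those changed by log2 1 were called, and 8 of 173 calls were false. These rates do not cover dim genes, or the real data, where many more genes were called and genes are not independent.

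Members and gene lists were chosen with earlier results of these data known. Genes named in the text were the 12 largest rises and 12 largest falls by fitted log2 fold change, with no floor at background. Their groups do not overlap and at least 1 mean lies above background (provisional symbols left out). Added to these were 11 genes fixed by name and up to 6 of the most changed called members per list (136 in all), plus other list members given for their role. Of 371 listed genes, 345 were measured and 26 are not analysed here. Promoter sequences are from RefSeq, build GRCm38.p6.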

Additional observations from a re-analysis of the deposited data

How the results depend on the processing

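Of the 2306 comparisons of a named gene with an alternative, 2168 kept direction and side of the threshold, 133 kept the direction but lost the call, 4 gained a call and 1 turned. The last was the glycolytic gene Pfkp, which had a log2 fold change of 0.65 and -0.32 when all its probe sets were averaged. Of 130 called named genes, 91 kept their call under all 17 alternatives. Other probe sets were present for 72 of the 130. For 37 of these genes another probe set was called in the same direction, and for none in the opposite direction. With only the 6 arrays in the fit, 1820 genes were called between BIO withdrawn and BIO kept, 843 higher and 977 lower. In that fit the spread came from these 2 groups alone. With the beta-actin covariate, 850 genes differed between BIO withdrawn and 24 h BIO aggregates and 1516 between BIO kept and 24 h BIO aggregates, against 4521 and 3792 without it. The 24 h comparison of BIO and DMSO aggregates then gave 2405, and 351 genes were raised there and lower after withdrawal. With the Gapdh ratio as covariate, BIO kept against 24 h BIO aggregates gave 1179. The beta-actin reading itself moved with BIO in 24 h aggregates, as given above, and the cause of these shifts was not tested. Of the calls, 45.5% were higher after withdrawal, 53.5% with the deposited scaling and 41.1% with median centring, and the median of all genes under the Gapdh covariate was -0.11.

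With 1 array left out at a time, the 48 h calls ranged from 2984 to 3441, those higher from 1423 to 1639 and those lower from 1485 to 1960. Genes raised at 24 h and lower after withdrawal ranged from 720 to 881, and those lowered and then higher from 655 to 809. The calls of BIO against DMSO ranged from 5346 to 5610 in aggregates and from 5120 to 5393 in dispersed cells. Against 24 h BIO aggregates they ranged from 3691 to 4719 after withdrawal and from 3094 to 3857 with BIO kept. The labels do not say what a shared replicate number means, and the numbers were not used to pair samples in the main fit. Deviations from the group means correlated at 0.12, -0.04 and 0.20 for the same number and at -0.25 to 0.11 for different numbers. With 3 arrays a group, these values cannot settle whether samples were paired. With the replicate number as a block 3532 genes were called, 3458 of them shared with the fit without it. Depth has no counterpart in these array files, and the number of arrays limits the precision. Genes near or below the background signal of 41.8 have no measured fold change.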

Other observations

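Some further genes with large changes were picked after their values were seen, so the choice carries no test of its own. The metallothioneins, small proteins that bind zinc and copper, were lower after withdrawal. Mt1 had 242, 281 and 461 on BIO-withdrawn arrays against 4263, 4271 and 4119 on BIO-kept arrays, 13.3-fold lower, and 746 in 24 h BIO aggregates. Mt2 was 14.3-fold lower. Several homeobox genes were also lower after withdrawal. Msx1, a known Wnt and BMP target, had 169, 155 and 217 after withdrawal against 4258, 4356 and 3478 with BIO kept. Dlx5 was 18.7-fold lower, En2 at least 10.9-fold, Evx1 at least 8.85-fold and Mixl1 9.93-fold. Wnt6, itself a Wnt ligand, had 174, 166 and 147 after withdrawal against 2780.2, 3210.1 and 2716 with BIO kept, and the Wnt inhibitor Dkk4 had 8.72, 9.95 and 18.1 after withdrawal against 294, 286 and 370.0 with BIO kept. Retinoid enzymes and a carrier, Aldh1a1, Aldh1a3 and Crabp2, were at least 6.93-fold, 14.9-fold and at least 9.15-fold lower. The stratified epithelial genes Krt5, Krt23 and Lamb3 were 14.2-fold, 18.4-fold and at least 3.03-fold lower.

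Genes of 3 surface peptidases were higher after withdrawal. Mme, which encodes neprilysin, had 992, 990.5 and 466 on BIO-withdrawn arrays against 48.9, 104 and 82.2 on BIO-kept arrays, and Enpep, the gene of aminopeptidase A, had 4607, 4886 and 4770.1 after withdrawal against 315, 294 and 286 with BIO kept. Corin, a protease that activates natriuretic peptide, had 176, 221 and 288 after withdrawal against 17.1, 20.1 and 14.8 with BIO kept. Ptgs2, the inducible cyclooxygenase that makes prostaglandins, was 9.63-fold higher after withdrawal, and Hpgd, which breaks them down, 7.28-fold higher. Ndnf had 3576, 3132 and 2676 after withdrawal against 139, 135 and 141 with BIO kept, and Cys1, a gene of the primary cilium that is mutated in a mouse model of cystic kidneys, had 434, 319 and 369 after withdrawal against 37.9, 27.7 and 8.75 with BIO kept.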
